A study of Mus musculus with 24 samples.

Results

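The constitutive distal H3K27ac sites of these mouse fibroblasts are 3735 places in the genome at which all 7 deposited H3K27ac lists placed a summit away from known promoters. They were defined by the summits themselves: every summit of the 7 lists was widened by 250 bp on each side, overlapping windows were merged, and a merged site was kept when each list had a summit in it and it lay more than 1 kb from the transcription start site (TSS) of any protein-coding transcript. Of 100984 merged sites, 79891 were distal by that limit, and the 3735 constitutive sites were 4.68% of these. The number depends on the settings. It was 2412 with windows of 100 bp on each side, 4248 with 500 bp, and 2353 with only the stronger summits of each list. Because presence in every list chose them, their H3K27ac strength is given below as a description, and the distance to coding genes was used too. PRRX1 summits, H3K4me3 regions and sequence are measures that the choice did not use.

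Acetylation of histone H3 at lysine 27 marks the nucleosomes beside active promoters and active enhancers. Enhancers lie at a distance from the genes they act on, carry clusters of short transcription factor motifs, and are usually more specific to a cell type than promoters are. Fibroblasts make and remodel the extracellular matrix, and the AP-1 factors (FOS and JUN dimers) and the TEAD factors of the Hippo pathway are widely bound at their enhancers. PRRX1 is a homeodomain transcription factor of mesenchymal cells, and homeodomains commonly recognise words with a TAAT core.

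The study profiled chromatin in 3 kinds of immortalised mouse fibroblast, all transduced with papillomavirus E6/E7 and grown in serum-containing medium. Mouse embryonic fibroblasts (MEF) came from C57BL/6 embryos of embryonic days 10 to 13, MMTV-CAF are cancer-associated fibroblasts from mammary tumours of FVB/NJ mice carrying MMTV-PyMT, and wound fibroblasts came from dorsal skin wounds of C57BL/6 mice 10 days after injury. For each kind there is a WT culture and an SG culture, in which Prrx1 was targeted by CRISPR with a guide RNA. For MEF there is also a KI culture, whose genotype the labels do not spell out and which the protocol links to Prrx1 mutant mice of strain 129S-Prrx1tm1Jfm/Mmmh. Each H3K27ac and H3K4me3 group and each of the 3 WT PRRX1 groups is 1 library, so no group has replicates of its own, and whether SG or KI cells lack the protein cannot be read from these lists. Strain differs between MMTV-CAF and the other kinds, so strain and kind of fibroblast cannot be told apart where MMTV-CAF is compared with MEF or wound fibroblasts. The labels give C57BL/6 for the KI cells also. The study's methods describe Prrx1 mutant MEF from this line, with LacZ placed in the Prrx1 homeodomain, and state that the mice were backcrossed to C57BL/6. The protocol still gives the mice a 129S strain name, and how far the backcross went is not stated.

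To show sequence under PRRX1 at or near such sites, the DNA around the MMTV-CAF PRRX1 summit is printed for 9 constitutive sites. They are among the 10 with the best PRRX1 ranks in all 3 fibroblast kinds (the other one lies in a UTR and is not printed). Only 64 of the 3735 sites had PRRX1 in all 3 kinds, so the windows are not typical of the set. The windows at Ttll7, Csgalnact1 and D930014E17Rik lie just outside the merged site, within 500 bp of a summit of it. Sequences are the plus strand of mm9, 5′ to 3′, 60 bases on either side of the summit. Capitals mark TAATTA, a palindromic homeodomain word, and CAGATG or its complement CATCTG, an E-box of the kind bound by basic helix-loop-helix factors such as TWIST1.
S1pr3, chr13:51410003-51410123: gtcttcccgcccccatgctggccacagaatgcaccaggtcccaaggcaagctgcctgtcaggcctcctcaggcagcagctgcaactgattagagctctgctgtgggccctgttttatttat
Cacna1c, chr6:118857809-118857929: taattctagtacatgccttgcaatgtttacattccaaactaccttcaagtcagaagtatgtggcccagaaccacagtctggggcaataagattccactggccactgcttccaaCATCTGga
Ttll7, chr3:147109050-147109170: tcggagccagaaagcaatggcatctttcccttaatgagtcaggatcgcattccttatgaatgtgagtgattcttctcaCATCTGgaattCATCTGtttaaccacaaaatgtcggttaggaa
Csgalnact1, chr8:71149836-71149956: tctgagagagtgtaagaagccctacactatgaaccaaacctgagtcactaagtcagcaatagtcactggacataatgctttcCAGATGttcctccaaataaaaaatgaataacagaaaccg
9030425E11Rik, chr9:40538871-40538991: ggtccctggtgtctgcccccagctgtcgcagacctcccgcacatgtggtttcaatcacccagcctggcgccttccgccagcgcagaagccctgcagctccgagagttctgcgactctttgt
Mmp19, chr10:128216636-128216756: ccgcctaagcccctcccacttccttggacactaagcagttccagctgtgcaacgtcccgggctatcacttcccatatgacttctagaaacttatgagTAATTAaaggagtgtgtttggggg
Cdrt4, chr11:62734792-62734912: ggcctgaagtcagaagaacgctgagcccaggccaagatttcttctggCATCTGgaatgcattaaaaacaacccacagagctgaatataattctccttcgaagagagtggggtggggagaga
D930014E17Rik, chr7:116815779-116815899: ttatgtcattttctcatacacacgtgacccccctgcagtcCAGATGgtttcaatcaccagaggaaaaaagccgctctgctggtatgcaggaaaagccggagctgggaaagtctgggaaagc
Fah, chr7:91705990-91706110: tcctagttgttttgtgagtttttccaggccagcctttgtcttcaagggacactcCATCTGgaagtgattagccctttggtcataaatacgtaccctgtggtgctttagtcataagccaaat
TAATTA occurred once in 1 of these 9 windows, at Mmp19. The E-box occurred in 6 of them, and at Ttll7 it occurred 2 times. The E-box was looked for only after these windows had been read.

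A second set shows where AP-1 words stood at sites next to genes from the study's text or supplementary lists. Capitals mark TGANTCA, the AP-1 word, where N is any base. Each run is 300 bases long. The Col1a1 run starts at the centre of the site, defined as the median summit position, while the Cebpb and Tead1 runs end there.
Cebpb, chr2:167615248-167615547: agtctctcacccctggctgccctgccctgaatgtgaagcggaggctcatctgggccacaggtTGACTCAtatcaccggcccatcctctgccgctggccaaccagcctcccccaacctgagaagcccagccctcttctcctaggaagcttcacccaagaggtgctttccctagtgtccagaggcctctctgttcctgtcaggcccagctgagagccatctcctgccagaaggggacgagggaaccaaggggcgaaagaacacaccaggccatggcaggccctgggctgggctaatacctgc
Col1a1, chr11:94777770-94778069: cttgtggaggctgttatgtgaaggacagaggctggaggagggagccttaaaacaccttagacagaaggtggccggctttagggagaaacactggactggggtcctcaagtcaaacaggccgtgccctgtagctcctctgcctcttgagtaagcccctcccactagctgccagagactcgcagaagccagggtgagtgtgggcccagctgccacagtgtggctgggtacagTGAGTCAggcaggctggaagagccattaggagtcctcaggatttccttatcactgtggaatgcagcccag
Tead1, chr7:119840660-119840959: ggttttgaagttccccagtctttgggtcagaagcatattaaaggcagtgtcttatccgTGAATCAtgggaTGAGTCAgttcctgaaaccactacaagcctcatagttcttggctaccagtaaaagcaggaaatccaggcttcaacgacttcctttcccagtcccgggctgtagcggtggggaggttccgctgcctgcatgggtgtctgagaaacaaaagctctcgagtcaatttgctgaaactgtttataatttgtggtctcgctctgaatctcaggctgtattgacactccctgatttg
These 3 were picked because they hold an AP-1 word at 200 to 300 bp, and so they do not show how common that is. Of 16 constitutive sites nearest to such genes, 4 had their nearest AP-1 word at 200 to 300 bp, and 9 had none within 400 bp. In the printed sites the word lay 234, 233 and 226 bp from the centre, with 2 copies shown at Tead1 and 1 in each of the other runs.

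The last pair of windows, 100 bases either side of the centre, comes from the constitutive sites whose lowest strength percentile over the 7 lists was highest. Here capitals would mark AP-1 or the TEAD word GGAATG.
Apol6, chr15:76867652-76867852: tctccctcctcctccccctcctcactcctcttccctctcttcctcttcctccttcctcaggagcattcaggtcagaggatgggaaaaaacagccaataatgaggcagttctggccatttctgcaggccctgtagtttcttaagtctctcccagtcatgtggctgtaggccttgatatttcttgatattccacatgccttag
Kirrel, chr3:86955009-86955209: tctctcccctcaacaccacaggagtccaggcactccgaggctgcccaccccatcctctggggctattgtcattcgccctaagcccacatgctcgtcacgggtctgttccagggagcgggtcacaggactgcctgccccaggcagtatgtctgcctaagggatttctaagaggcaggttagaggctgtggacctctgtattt
Neither word occurred in these windows. Among the 10 sites chosen in this way 1 window, at Tmem216, held GGAATG and none held AP-1. Within 250 bp of the centre GGAATG was present at the first Kirrel site, Ptms, Mrpl45 and Tmem216, and AP-1 at Ptms and Klf14.

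Presence in all lists was rarer far from promoters. Sites of all 7 lists numbered 10680, of which 35.0% were distal, whereas 90.1% of the 42498 sites found in 1 list were distal. The number of distal sites fell from 38271 in 1 list to 4085 in 6 lists and 3735 in 7. Among distal sites missing from exactly 1 list, the missing list was MEF KI for 1714 sites (42.0%), wound WT for 855 (20.9%) and MEF WT for 170. MEF KI and wound WT were also the shortest lists, with 29325 and 33465 summits against 43019 to 61603 in the others. The total reads behind each list are not known from these files.

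**Figure D1:**
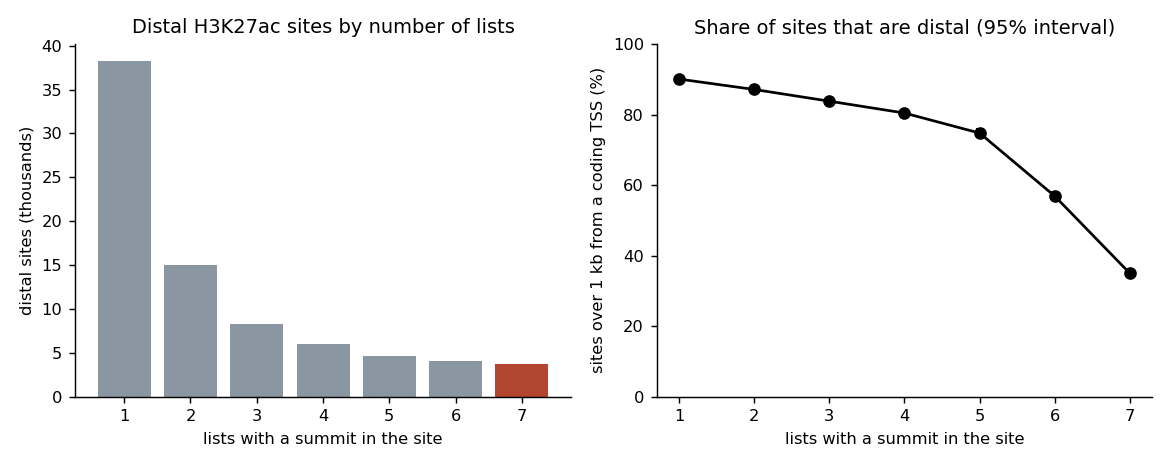
Left, distal H3K27ac sites (vertical axis, unit 1000 sites) by the number of the 7 lists with a summit in the site (horizontal axis). The bar for 7 lists is the 3735 constitutive sites. Right, percent of all merged sites that were over 1 kb from a protein-coding TSS, with 95% Wilson intervals smaller than most points, falling from 90.1% for 1 list to 35.0% for 7.

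The limit of 1 kb fell within a continuous run of sites. Just outside it, as promoter-proximal, were sites of all lists near Ccnd2 (980 bp), Trim8 (982 bp), Lasp1 (993 bp), Sco2 (996 bp) and Ltbp3 (996 bp). Just inside were sites near Brwd3 (1019 bp), Btbd19 (1023 bp), Atp5g2 (1072 bp), Lck (1077 bp) and Thbs1 (1086 bp).

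The constitutive sites had a median width of 914 bp (511 to 3883 bp) against 519 bp for all distal sites, as windows from more lists were merged into them. Their median distance to a coding TSS was 24.4 kb, close to the 24.0 kb of all distal sites, and the farthest lay 1177 kb away. By the position of the centre, 52.8% were intergenic (95% Wilson interval 51.2 to 54.4%), 44.5% intronic and 1.23% in coding exons, and 56 sites lay in a UTR. Among all distal sites 45.2% were intergenic and 51.1% intronic. A TSS of a non-coding gene lay within 1 kb of 5.94% of the constitutive sites (5.23 to 6.75%) and of 2.44% of all distal sites. All such intervals cover counting error over sites and not the spread between cultures.

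Constitutive sites were strong in most lists but not in all. Strength is the −log10 p that the authors' peak caller gave to the strongest summit of a list in a site. For MEF the median over constitutive sites was 35.0 (WT), 15.2 (KI) and 41.3 (SG), for MMTV-CAF 35.1 (WT) and 38.9 (SG), and for wound fibroblasts 17.2 (WT) and 30.0 (SG). Over all distal sites the medians ran from 11.9 in MEF KI to 16.0 in MEF SG. The values are not scaled between lists, so a percentile among the distal sites of the same list was used to set lists side by side. The median constitutive site stood at percentile 85.9 of the list for MEF WT, 66.2 for MEF KI, 88.6 for MMTV-CAF WT and 73.1 for wound WT. MEF KI and wound WT, the shortest lists, thus also placed these sites lowest.

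**Figure D2:**
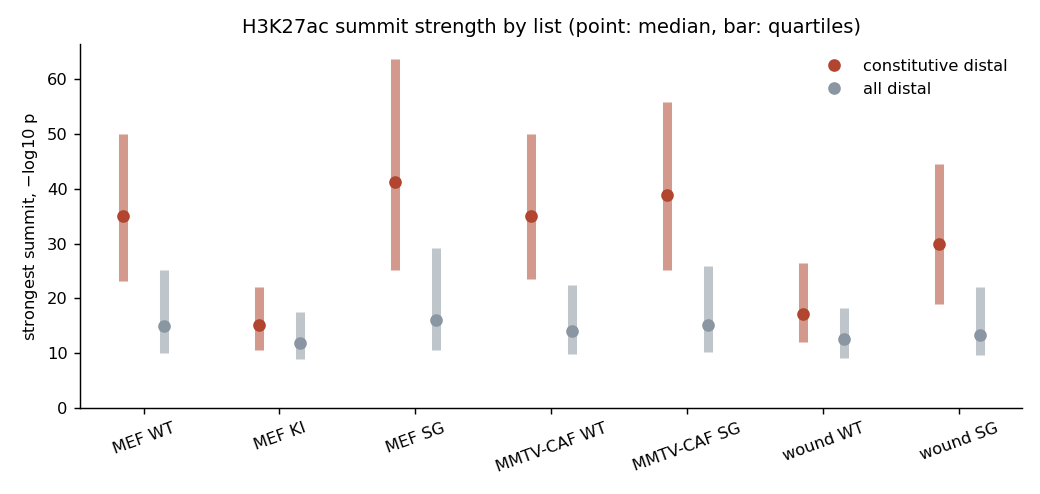
Strength of the strongest H3K27ac summit per site (vertical axis, −log10 p) in each list (horizontal axis), with points at medians and bars from the lower to the upper quartile. Medians of the constitutive sites lie above those of all distal sites in each list, least so in MEF KI (15.2 against 11.9) and wound WT (17.2 against 12.6).

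The order of the constitutive sites by strength was partly shared between lists. Over the 3735 sites, Spearman's rho between lists of 1 fibroblast kind was 0.29 to 0.69 (5 pairs, median 0.63) and between kinds 0.18 to 0.60 (16 pairs, median 0.51). The lowest values were those with MEF KI. These correlations are across sites and carry no test. Of the sites, 121 (3.24%) were in the top 25% of constitutive sites in all 7 lists and 37 (0.99%) in the bottom 25% in all, while 1097 (29.4%) were in the top 25% of 1 list and the bottom 25% of another. Being present everywhere therefore did not mean being equally ranked everywhere.

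The site with the highest floor lay in an intron of Apol6, an apolipoprotein L family gene, at chr15:76867482-76868037. In MEF its strength was 117 (WT), 47.7 (KI) and 130.2 (SG), MMTV-CAF gave 188 (WT) and 96.9 (SG), wound fibroblasts gave 87.2 (WT) and 120.2 (SG), and its lowest percentile was 99.6. Both Apol6 and the next site lie within the top percentile of distal sites in each list. That next site lay in an intron of Kirrel (chr3:86954713-86955397), which encodes an adhesion protein of the immunoglobulin superfamily. A further intronic Kirrel site (chr3:86961037-86962067) was also among the first 10, with a lowest percentile of 98.1. The other 7 lay nearest to Ptms, Mrpl45, Klf14, Tmem216, Plekho2, Sfxn3 and Irf2, with lowest percentiles from 97.9 (Irf2) to 99.1 (Ptms). Ptms encodes parathymosin, Mrpl45 a mitochondrial ribosomal protein, Klf14 a Krüppel-like factor and Irf2 an interferon regulatory factor. The second Kirrel site and the Irf2 site, 2 of these 10, had a PRRX1 summit within 500 bp in at least 1 kind, as did 23.8% of all constitutive sites.

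The ranks of some constitutive sites separated 1 kind of fibroblast from the others. When sites were ranked within each list, 205 (5.49%) ranked higher in all 3 MEF lists than in all others and 224 ranked lower. For the MMTV-CAF lists 284 (7.60%) ranked higher and 307 lower, and for the wound lists 207 (5.54%) and 229, so in each kind more sites were lower than higher. The largest gap for MMTV-CAF was at a site 65.2 kb from Tmem63b, a mechanically gated channel gene, where MMTV-CAF had strengths of 83.0 (WT) and 102 (SG), MEF 12.7 (WT), 7.42 (KI) and 15.9 (SG), and wound fibroblasts 14.3 (WT) and 22.4 (SG). The MMTV-CAF lists do not overlap the others there. For MEF the largest gap was 19.1 kb from 5330426P16Rik, with 48.8 (WT), 32.4 (KI) and 64.5 (SG) in the MEF lists and 10.4 to 23.8 in the other lists. For wound fibroblasts it was in an intron of Ptpn21, a tyrosine phosphatase gene, with 21.2 and 37.0 against 6.10 to 19.8. These 3 sites were picked for these gaps, so the gaps are a description.

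PRRX1 summits lay near more constitutive sites than distal sites in general. Within 500 bp of a summit of the site, a PRRX1 summit was present at 120 constitutive sites for MEF, 660 for MMTV-CAF and 404 for wound fibroblasts. These are 3.21% (95% Wilson interval 2.69 to 3.83%), 17.7% (16.5 to 18.9%) and 10.8% (9.86 to 11.9%), where 1.29%, 5.56% and 3.2% of all distal sites had one. Distal sites of 6 lists stood between, at 2.79% (2.33 to 3.34%), 13.8% (12.8 to 14.9%) and 8.13% (7.33 to 9.01%). Many distal sites have no H3K27ac summit in the WT list of the same kind. Of the 79891, 27250 had one in MEF WT. The shares of constitutive sites depended on the search distance, and within 250 bp they were 1.79%, 11.3% and 6.80%. At least 1 kind had a PRRX1 summit at 888 sites (23.8%, against 18.4% of distal sites of 6 lists and 7.82% of all distal sites). All 3 kinds had one at 64 (1.71%, against 1.40% and 0.453%). The other 2847 constitutive sites, 76.2%, had no listed PRRX1 summit nearby in any kind. Wider sites were searched over a greater length, and with the search fixed at 500 bp from the site centre the shares were 2.25%, 13.9% and 8.59% against 1.07%, 4.81% and 2.71%.

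The order of the 3 kinds followed the length of their PRRX1 lists, which hold 3048, 8000 and 5698 summits. With the MMTV-CAF and wound lists shortened to 3048 summits, strongest first, the shares were 8.22% and 5.97% against 3.21% in MEF. The order was the same, with the MMTV-CAF share reduced by more than 2 times.

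At matched H3K27ac strength the direction of the gap to other distal sites differed between the kinds, but the intervals overlapped throughout. Distal sites were divided into 4 bins by their percentile of strength in the WT list of the same kind, and PRRX1 was looked for within 500 bp of that list's strongest summit. The wound bins were of uneven size. In the strongest bin a PRRX1 summit was present in MEF at 2.82% of constitutive sites (2.25 to 3.53%) and 3.77% of other distal sites (3.23 to 4.39%), and in MMTV-CAF at 15.5% (447 of 2887 sites) and 14.1% (855 of 6065 sites). The wound values were 10.1% (8.81 to 11.6%) and 8.64% (7.60 to 9.81%). The intervals overlap in every bin of each kind, and the weaker MEF bins held 1, 2 and 9 constitutive sites with PRRX1. Constitutive sites had the lower share in all 4 bins in MEF and the higher share in all 4 in wound, while in MMTV-CAF they were higher in 2 bins and lower in 2. Over all bins the constitutive and other shares were 2.30% and 2.18% for MEF, 13.2% and 6.57% for MMTV-CAF, and 7.95% and 4.82% for wound. Constitutive sites are concentrated in the strongest bin, which held 2887 of the 3735 in MMTV-CAF WT.

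**Figure D3:**
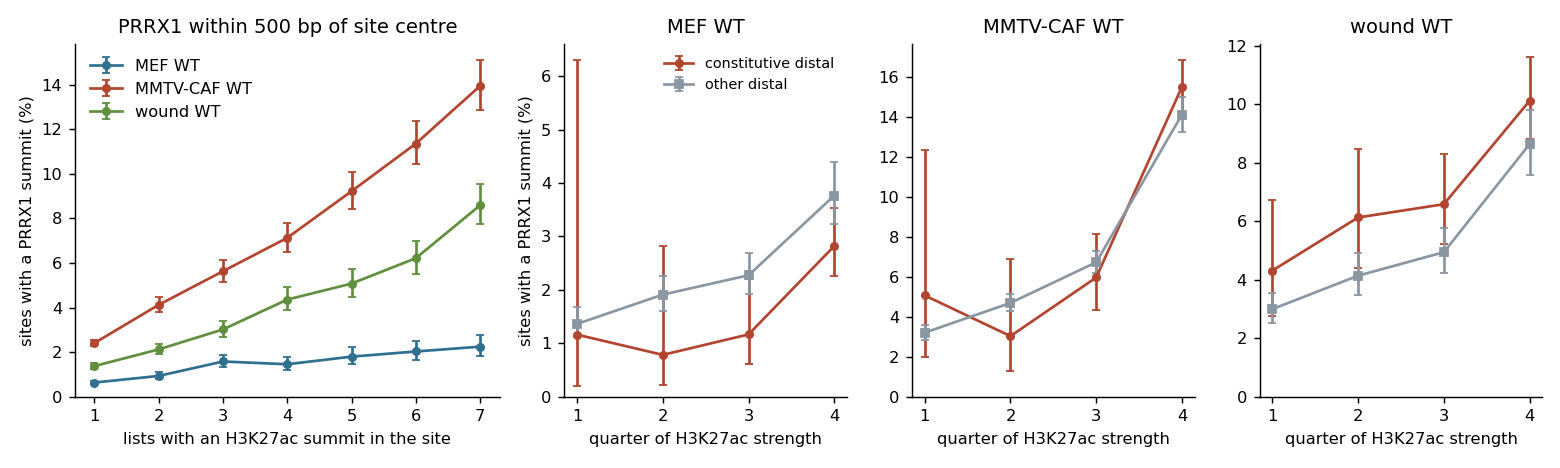
Left, percent of distal sites with a PRRX1 summit within 500 bp of the site centre (vertical axis) by the number of H3K27ac lists with a summit (horizontal axis), with 95% Wilson intervals, reaching 2.25%, 13.9% and 8.59% at 7 lists. The other panels show, for each kind, the percent with PRRX1 within 500 bp of the WT list's strongest summit in 4 bins of H3K27ac strength from weakest (1) to strongest (4), with 95% Wilson intervals. Constitutive sites lie below other distal sites in each MEF bin, above them in each wound bin, and on either side of them in MMTV-CAF. The intervals overlap in every bin.

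Of the 888 constitutive sites with PRRX1, 656 had it in exactly 1 kind, 168 in 2 and 64 in all 3. Of the 120 constitutive sites with PRRX1 in MEF WT, 71.7% also had it in MMTV-CAF WT and 62.5% in wound WT, where for other distal sites these shares were 53.6% and 43.8%. In reverse, 13.0% of the 660 MMTV-CAF sites and 18.6% of the 404 wound sites had PRRX1 in MEF, nearly the same as for other distal sites (12.8% and 18.4%). Between MMTV-CAF and wound, 199 sites were shared, which are 30.2% of the MMTV-CAF sites and 49.3% of the wound sites. For other distal sites these shares were 23.8% and 41.8%. The PRRX1 summits at constitutive sites made up 3.97% of the MEF list, 8.40% of the MMTV-CAF list and 7.16% of the wound list.

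The 64 constitutive sites with PRRX1 in all 3 kinds were nearest to 64 different genes. Their median distance to a TSS was 45.0 kb, and 56.2% were intergenic. The best ranked in PRRX1 lay in a UTR of Ccdc97, which encodes a coiled-coil domain protein (chr7:26497053-26497625), with PRRX1 −log10 p of 38.9 for MEF, 87.5 for MMTV-CAF and 45.6 for wound. Its PRRX1 ranks were 44, 3 and 15 in the 3 lists. The next lay 92.8 kb from S1pr3, the gene of a sphingosine 1-phosphate receptor, with 44.1, 82.1 and 28.0, and the one after it in an intron of Cacna1c, a calcium channel subunit gene, with 28.7, 52.8 and 33.2. These sites are among the strongest PRRX1 places of each list, but their H3K27ac varied. At the S1pr3 site H3K27ac strength in MEF was 46.2 (WT), 9.80 (KI) and 38.7 (SG), for MMTV-CAF 66.6 (WT) and 59.3 (SG), and for wound fibroblasts 35.6 (WT) and 35.8 (SG), lowest in MEF KI. The remaining 7 of the first 10 were nearest to Ttll7 (a tubulin ligase-like enzyme), Csgalnact1 (chondroitin sulfate synthesis), 9030425E11Rik, Mmp19 (a matrix metalloproteinase), Cdrt4, D930014E17Rik and Fah (tyrosine breakdown).

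The words in the printed PRRX1 windows can be set against all PRRX1 summits. Within 100 bp of PRRX1 summits at constitutive sites TAATTA occurred in 31.4% in MEF (95% Wilson interval 23.8 to 40.1%), 22.5% in MMTV-CAF (19.5 to 25.8%) and 20.8% in wound (85 of 408 summits). PRRX1 summits at other distal sites held it in 39.4%, 29.8% and 29.6%, and positions 2 kb to either side of the constitutive ones in 6.61%, 4.84% and 5.02%. PRRX1 summits with no H3K27ac summit within 500 bp held it far more often, at 82.2%, 52.6% and 67.6%. The AP-1 word showed the opposite order, with 32.2%, 31.7% and 26.5% at constitutive sites, 25.4%, 27.1% and 22.1% at other distal sites, and 7.87%, 11.9% and 8.51% at PRRX1 summits without H3K27ac. CAGATG occurred within 100 bp of 39.7%, 24.9% and 27.5% of PRRX1 summits at constitutive sites and 33.7%, 26.4% and 29.5% of those at other distal sites, against 48 of 242, 202 of 1343 and 144 of 816 positions at 2 kb from the former. The 64 sites shared by all kinds include those whose windows prompted the word. Without the 10 best ranked of them it occurred at 27 of 54 sites (37.1 to 62.9%) around the MEF and the MMTV-CAF summit and at 25 of 54 around the wound summit. TAATTA occurred at 1 summit or more of 24 of the 64. Around the centres of all distal sites, 250 bp each way, CAGATG was present in 36.4%, so this short word is common in any window of that length. Matches to such words are descriptions of sequence and were not tested for binding.

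Sequence at the centres was read with 11 words, on both strands and within 250 bp of the centre. The AP-1 word TGANTCA was present at 25.8% of constitutive sites (24.4 to 27.2%), 21.1% of all distal sites, 19.5% of distal sites of 1 list and 14.1% of positions 2 kb from constitutive sites. TEAD (GGAATG) was present at 30.3% (28.9 to 31.8%) and 28.1% of all distal sites, and the Krüppel-like word CCACCC at 40.5% and 35.7%. Distal sites of 6 lists were close to the constitutive sites in all 3 words, with AP-1 at 25.6%, TEAD at 29.9% and the Krüppel-like word at 39.6%. An ETS word, CCGGAAG, which is frequent at promoters, was present at 4.85% (4.20 to 5.58%) and 2.53%, and part of the CTCF motif, AGGGGGC, at 9.88% and 7.07%. The cyclic AMP response word TGACGTCA was rare, at 0.696% and 0.379%. Words that were not more frequent were RUNX TGTGGT (32.4% and 34.4%), C/EBP TTGCNNAA (17.9% and 19.3%), the NFI word TTGGCA (26.0% and 25.9%) and the liver factor word CAAAGTCCA (0.696% and 0.809%). TAATTA was less frequent at constitutive sites, at 6.59% (5.83 to 7.43%) against 9.71%.

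Base composition differed alongside. Median GC content was 49.7% at constitutive sites and 47.1% at all distal sites, against 63.9% at constitutive sites near a TSS. With distal sites split into 3 bins of low, middle and high GC content, AP-1 was present at 25.7%, 28.5% and 24.2% of constitutive sites and at 21.6%, 22.0% and 18.8% of other distal sites. TAATTA was present at 13.0%, 8.31% and 3.54%, and at 16.5%, 8.86% and 4.28%, with overlapping intervals in the middle and high bins. AP-1 thus stood above the other distal sites in each bin. The Krüppel-like word did not, with 23.2%, 33.6% and 50.2% at constitutive sites and 21.9%, 34.1% and 50.4% at other distal sites. The CTCF word was present at 3.29%, 5.85% and 14.4% of constitutive and 3.50%, 5.61% and 11.7% of other distal sites, so that it stood higher by more than the intervals in the high bin alone.

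AP-1 words were most frequent at some distance from the centre. Words within 100 bp of the centre were no more frequent at constitutive than at other distal sites (5.90% against 6.13%). At 200 to 300 bp from the centre AP-1 was present at 24.1% of constitutive sites (22.8 to 25.5%) and 14.8% of other distal sites, and at 300 to 400 bp at 18.8% and 14.0%. Beyond 700 bp the values met, at 7.45% and 7.60%. TAATTA ran the other way in both sets. At constitutive sites it rose from 1.98% within 100 bp of the centre to 6.17% at 900 to 1000 bp. At other distal sites it rose from 3.22% to 5.77%.

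**Figure D4:**
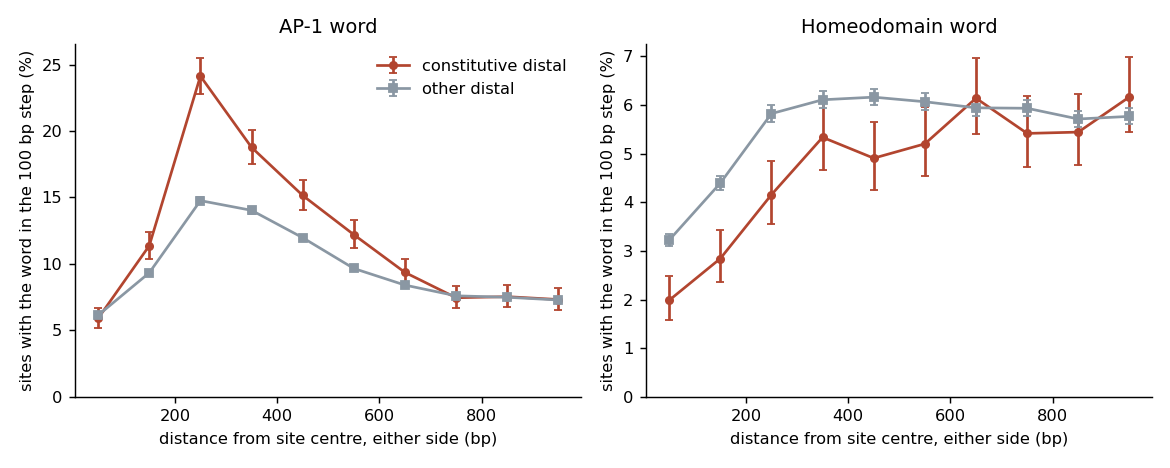
Percent of sites (vertical axis) with the AP-1 word TGANTCA (left) or the homeodomain word TAATTA (right) in each 100 bp step of distance from the site centre, counting both sides (horizontal axis), with 95% Wilson intervals. AP-1 peaks at 200 to 300 bp, at 24.1% for constitutive and 14.8% for other distal sites, and the curves meet beyond 700 bp.

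H3K4me3, a mark known chiefly from promoters, covered many of these distal sites. A deposited H3K4me3 region of at least 1 list overlapped 3225 constitutive sites (86.3%, 85.2 to 87.4%), where 42.4% of all distal sites had one. The share was 77.1% at distal sites of 6 lists and 67.1% at those of 5, so it was higher at each step from 5 to 7 lists. Of the lists, those of MEF covered 33.0% (WT), 19.6% (KI) and 27.8% (SG), those of MMTV-CAF 77.8% (WT) and 76.4% (SG), and those of wound fibroblasts 28.5% (WT) and 40.7% (SG). Of all distal sites the MEF lists covered 11.5% (WT), 6.26% (KI) and 9.32% (SG), the MMTV-CAF lists 31.4% (WT) and 32.5% (SG), and the wound lists 11.0% (WT) and 15.6% (SG), so the MMTV-CAF lists covered the most in both sets. The MMTV-CAF lists also hold the most regions (27339 and 29166, against 13125 to 19641). Many of these regions were weak: with −log10 p of at least 10 required, the share with a region of at least 1 list was 34.0% (32.5 to 35.5%) against 17.8% of all distal sites, and 25.8% in MMTV-CAF WT against 18.2% in MEF WT, where all distal sites had 13.4% and 8.10%.

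**Figure D5:**
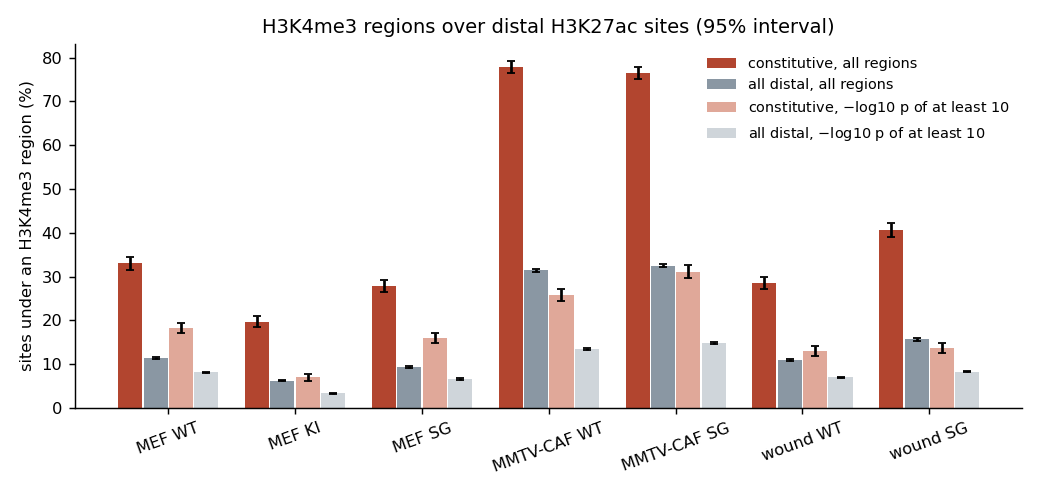
Percent of sites overlapped by an H3K4me3 region (vertical axis) in each list (horizontal axis) for constitutive and all distal sites, with all deposited regions and with regions of −log10 p of at least 10 only, and 95% Wilson intervals. MMTV-CAF bars fall from 77.8% (WT) to 25.8% when weak regions are left out.

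The constitutive sites under H3K4me3 in all 7 lists differed in sequence from the rest. There were 632 of them, 16.9%, where 4.94% of all distal sites were so covered, and 70.9% were intergenic while 20.1% had the TSS of a non-coding gene within 1 kb. Their CpG ratio, observed over expected, had a median of 0.63 and their GC content one of 56.1%. The ETS word was present at 13.8% (11.3 to 16.7%) and AP-1 at 76 of the 632 (9.72 to 14.8%). At the 510 sites with H3K4me3 in no list the CpG ratio was 0.16 and GC content 47.1%, with ETS at 10 of the 510 (interval 1.07 to 3.57%) and AP-1 at 27.1% (23.4 to 31.1%). Thus the sites under H3K4me3 in all lists had the base composition nearer to that of constitutive sites beside a TSS, whose median CpG ratio was 0.79. PRRX1 in at least 1 kind was found at 24.1% of the first set, 17.5% of the second and 647 of the 2593 sites with H3K4me3 in 1 to 6 lists. In the same order of sets, PRRX1 in MEF was at 1.42%, 3.14% and 3.66%, in MMTV-CAF at 16.1%, 12.2% and 19.1%, and in wound fibroblasts at 13.0%, 9.02% and 10.6%. The sites under H3K4me3 in all lists were thus lowest for MEF and highest for wound fibroblasts.

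Constitutive sites near PRRX1 ranked lower in MEF SG than in MEF WT. When sites were ranked by strength within each list, the 120 sites with PRRX1 in MEF WT had a median change of −14.2 percentile points from MEF WT to MEF SG, with 77.5% of them lower (95% Wilson interval 69.2 to 84.1%), and the other sites one of 0.80. From MEF WT to MEF KI the values were −8.67 and 0.56. In MMTV-CAF SG they were −3.38 for 660 sites and 0.11, and in wound SG −0.80 for 404 sites and 0.03. With WT and SG paired by kind, the change near PRRX1 was lower than at the other sites in 3 of 3 kinds, by −6.43 points on average. An exact two-sided sign-flip test over the 3 pairs gave p = 0.25. This is the smallest p that 3 pairs allow, so this design cannot pass 0.05. The pairing was made after the data were seen, and each site was kept only because every list had a summit there. The test therefore cannot decide whether the change differs near PRRX1. Sites near PRRX1 started from higher WT ranks, with medians of 70.2, 64.2 and 62.3, and PRRX1 and WT H3K27ac were measured in the same kind of cells. Within the top 25% of WT rank the median change in MEF SG was −26.2 for 52 sites near PRRX1 and −5.49 for 883 others, and in MEF KI it was −27.5 and −14.3. In the other 3 bins of WT rank, from the highest, the MEF SG values were −20.0 and −1.69, −12.9 and 2.78, and 13.0 and 8.69. The SG order was thus reversed in the lowest bin, which had 11 sites near PRRX1. The MEF KI values in these bins were −7.18 and −6.57, 10.99 and 6.21, and 11.3 and 19.3, so the gap in KI was widest in the top 25%. For the top 25% the change was −7.88 and −5.85 in MMTV-CAF SG, and −4.71 and −5.03 in wound SG.

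The same MEF sites also ranked lower in WT cells of the other kinds. From MEF WT to MMTV-CAF WT the 120 sites changed by a median of −10.7 and to wound WT by −18.6, against 0.33 and 0.63 for the other sites. In the top 25% of MEF WT rank the change to wound WT was −21.3 and −6.96, and to MMTV-CAF WT −16.0 and −9.06. The comparisons share the MEF WT list, each rests on 1 library per group, and the part of the Prrx1 genotype in the MEF values was not tested. Of all 3735 constitutive sites, 261 ranked lower in all 4 SG and KI lists than in the WT list of their kind and 281 ranked higher in all 4. How many would do so with unrelated lists was not computed.

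The constitutive sites were nearest to the TSS of 2380 of 22232 protein-coding genes, or 10.7%. The nearest gene is a label of position, and contact between site and gene was not measured. Genes with many distal sites of any kind have more chances, so the number of distal sites is given beside the counts of the 10 genes with most sites, and the share beside each list. Overall 4.68% of distal sites were constitutive, and 23.8% of constitutive sites had PRRX1 in at least 1 kind. Myc, the growth-promoting transcription factor gene, had 14 constitutive sites among 203 distal sites, at 41.2 to 582 kb. Thbs1 (thrombospondin 1, a matrix glycoprotein) had 10 of 109 and Fmn1 (formin 1, an actin nucleator) 10 of 96, and at Fmn1 8 of the 10 had PRRX1. Apbb2 had 9 of 64 and Tprg 9 of 97. With 8 sites each there were 7 genes, of which 5 came within the first 10, namely Asap1 (an ARF GTPase-activating protein, 93 distal sites), Gadd45g (a stress-induced gene, 49), Tsc22d2 (52), Klf6 (a Krüppel-like factor, 57) and Arid5b (77). PRRX1 was at 0 of the 8 sites of Klf6 and at 5 of the 8 of Asap1.

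Genes of the fibroblast matrix were often among the nearest genes. In a list of fibrillar and basement membrane matrix genes, 25 of 38 had at least 1 constitutive site, and 7.10% of their distal sites were constitutive. Thbs1 led this list with its 10 sites, followed by Col5a1 with 7 and Col4a2 with 4. In the TGF-beta list 16 of 22 genes had one (7.28% of distal sites), led by Ltbp1 with 6, which encodes a latent TGF-beta binding protein, then Tgfbr3 and Smad7 with 5 each. In the list of actin, contraction and adhesion genes it was 21 of 38 (6.73%), including 6 sites at Lpp and 5 at Cald1 (caldesmon). Mesenchymal regulators had a site at 19 of 28 genes (5.09%), with 8 at Klf6, 6 at Runx2, the osteoblast regulator, and 6 at Foxp1. Hippo pathway genes had one at 7 of 17 (5.74%), including 5 at Vgll4, a TEAD cofactor, 4 at Amotl2 and 4 at Tead1. AP-1 subunit genes had one at 5 of 13 (6.31%), with 3 at Jun and 1 each at Junb and Fosl1. Growth factor receptors had one at 9 of 19 and the lowest share among these lists of constitutive distal sites, 3.21%, with 4 at Igf1r, 3 at Notch2 and 1 at Il6st.

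Read by the nearest gene, constitutive sites lay at markers of fibroblasts and at some markers of other cell types. The share of distal sites that were constitutive was 6.12% for fibroblast, 5.08% for epithelial and 3.26% for endothelial markers, beside 4.68% for all genes, and fibroblast markers had more distal sites (median 17 a gene, against 2 for epithelial markers). Of 16 fibroblast markers 10 had a constitutive site, namely Col5a1 with 7, Col1a1 and Col1a2 with 3 each, Dcn (decorin), Twist1 and Fbn1 with 2 each, and Thy1, Col6a1, Col3a1 and Pdgfrb with 1 each. Of 13 leukocyte markers 0 had one, as did 0 of 16 muscle and neural and 0 of 12 hepatocyte markers, of which 4, 8 and 4 had a distal site of any kind. The leukocyte count depends on the genes listed, since Lck, a T-cell kinase gene that is not on it, had a constitutive site at 1077 bp. Of 16 epithelial markers 5 had one, namely Trp63 with 2 and Krt8, Krt18, Krt19 and Epcam with 1 each, and of 12 endothelial markers Kdr had 2 and Cdh5 1. Several of these lay far off, with the Trp63 sites at 68.0 and 150.4 kb, the Epcam site at 64.3 kb and the Cdh5 site at 78.6 kb. Whether these sites act on those genes was not tested.

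Of 9 genes taken from the study's text or its supplementary lists, Prrx1 itself had 0 constitutive sites among 45 distal sites, Klf4 had 0 of 57 and Fosl2 0 of 25. Cebpb, a leucine zipper factor gene, had 4 sites at 75.8 to 112 kb, 2 of them with PRRX1. The Cebpb site at chr2:167590222-167591422 had strengths of 85.7 (WT), 20.5 (KI) and 116 (SG) for MEF, 143 (WT) and 127 (SG) for MMTV-CAF, and 67.5 (WT) and 97.6 (SG) for wound. It stood above percentile 99 in each list but MEF KI, where it was at 82.7. The Col1a1 site at chr11:94777432-94778973, from which the printed run was taken, had strengths from 20.4 in MEF KI to 71.2 in MMTV-CAF SG. Another Col1a1 site (chr11:94734195-94734917), near PRRX1, ranged from 7.32 in MEF KI to 80.6 in MMTV-CAF SG. Of the 4 Tead1 sites, the one at chr7:119840663-119841316 had a lowest percentile of 81.9 and the one at chr7:120011961-120012654 one of 0.61, in MEF KI. Nfix had 3 sites, Junb 1 and Klf13 1.

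Constitutive sites also stood in groups. With sites joined when under 12.5 kb apart, 1228 of the 3735 (32.9%) lay in 532 groups of at least 2, and 38 groups held 4 or more. The largest held 7 sites over 36.9 kb at Apbb2, an adaptor of the amyloid precursor protein. Groups of 6 lay at Dapk1, a death-associated kinase gene, and Ergic1. A group of 5 over 32.4 kb lay beside Snai1, the epithelial-to-mesenchymal transition regulator, and 3 of its sites had PRRX1.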

How the data were processed

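Chromatin immunoprecipitation sequencing gave 17 peak lists from 24 libraries, 7 of them inputs without a list of their own. Per the labels and the study's methods, reads were trimmed (Trimmomatic), mapped to mm9 (Bowtie) and freed of duplicates (Picard) by the authors, who then ran MACS2 with a matching input, so several marks of a culture can share 1 input. For PRRX1 the methods also name IgG as a control, and which control its lists used is not clear from them. The deposited H3K27ac and PRRX1 files give summits with their −log10 p. The deposited H3K4me3 files give broad regions with fold enrichment, a ratio that was not used here, and −log10 p. The lowest PRRX1 value was 3.00 and the lowest H3K27ac value 5.00, although 1 cutoff is stated. Whether the duplicated PRRX1 experiments were pooled is not given in the sources used here. Depth per library is unknown, so a missing summit does not show missing acetylation, and no depth-based interval is given.

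Merging, distances and overlaps were computed with numpy 2.4.6 and pandas 2.3.3 on GENCODE vM1 (NCBIM37, the mm9 assembly), and sequence was read with pysam 0.24.0. The code was tested on simulated data. Shares carry 95% Wilson intervals (scipy 1.17.1). With 1 library per group, the only test was an exact sign-flip test of WT against SG paired by kind of fibroblast.

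Sites, gene lists and words were chosen with earlier results of these data known. Named items are the 10 sites with the highest lowest percentile, the 10 PRRX1 sites with the best worst rank, 5 sites on either side of the 1 kb limit, 10 genes with most sites (7 genes tie at 8 sites, of which 5 are named), 9 genes the study's text or supplementary lists name, and 3 genes per list, of which 1 is not reported here. For marker lists, each gene with a site is named. Other windows, thresholds and lists were tried as alternatives, and those that use the site centre, ranges of WT strength, distance steps and CAGATG were chosen after seeing the data.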

Additional observations from a re-analysis of the deposited data

How the results depend on the processing

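The 3735 sites became 4248 with windows of 500 bp, 3250 beyond 5 kb from a TSS, 3418 when TSSs of all transcripts were used, 3834 with distance from the centre and 2561 with lists cut to 29325 summits. They became 2412 with windows of 100 bp and 2353 with summits of −log10 p of at least 10. With any 1 list left out they numbered 3863 to 5380, the highest without MEF KI. The PRRX1 shares in MEF, MMTV-CAF and wound were 1.79%, 11.3% and 6.80% within 250 bp, 4.74%, 21.7% and 13.7% within 1 kb, and 2.25%, 13.9% and 8.59% within 500 bp of the centre. With PRRX1 summits of −log10 p of at least 5 they were 15.1% in MMTV-CAF and 8.41% in wound, and with lists cut to 3048 summits 8.22% and 5.97%. The H3K4me3 share was 34.0% with −log10 p of at least 10 and 81.8% at the centre. Within 100 bp of the centre the ratio of word shares, constitutive over other distal sites, was 0.97 for AP-1 (1.24 within 250 bp), 1.13 for the cyclic AMP word (1.91) and 1.46 for ETS, smaller than within 250 bp. With the mean of a list's summits the median percentile in MMTV-CAF SG was 87.0. Counting the nearest TSS within 50 kb only, 1898 genes had a site, with 3 epithelial markers and 1 endothelial. By replicate number, no paired analysis was possible because the labels give none. WT and SG were paired by kind of fibroblast after the data were seen. The exact sign-flip test over 3 pairs gave p = 0.25, the smallest that 3 pairs allow. A site absent from a list may lie under its threshold, and unknown depth limits what absence means.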
